A study of Arabidopsis thaliana with 9 samples.

Results

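A set of 60 genes was counted in every *Arabidopsis* library of the AtKAI2OE line and was at or next to 0 in every library of the accession Ara-1. Genes were selected on their counts in both lines. A gene entered the set when its counts, summed over the entries of its AGI locus identifier, reached at least 50 in each of the 6 AtKAI2OE libraries and at most 1 in each of the 3 Ara-1 libraries. The rule gave 60 members out of 11315 genes that met the AtKAI2OE floor (0.530%), out of 32830 genes in the count table. The mirrored rule, at least 50 counts in each Ara-1 library and at most 1 in each AtKAI2OE library, gave 20 of 13158 genes (0.152%). The members were chosen for their difference between Ara-1 and AtKAI2OE, so that this difference is given as values and was not tested.

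RNA was taken from whole seeds, with 3 biological replicates in each group. All seeds were sown in dim light (0.3 μmol per square metre and second), imbibed at 4°C in darkness for 4 days and then left to germinate in darkness for 24 h. The Ara-1 seeds were wild type and received no karrikin. The AtKAI2OE seeds overexpress the karrikin receptor gene *AtKAI2* in the Col-0 accession by their labels, or carry *35S::AtKAI2* in *htl-3*, a *kai2* mutant, by the study's methods, and were germinated without KAR2 (untreated) or with 0.5 μM KAR2, a karrikin of smoke that acts through this receptor. Accession, transgene and mutant background all change together between Ara-1 and AtKAI2OE and cannot be told apart. Reads of all libraries were mapped to one reference, TAIR10, which is the Col-0 genome.

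Accessions of *Arabidopsis* differ in which genes they carry and in how similar their copies are. Genes for NLR proteins, the intracellular receptors that start a defence response when they sense a pathogen effector, and for F-box proteins, which choose the targets of SCF ubiquitin ligases, are textbook cases of such variable families. Both are often found in tandem arrays that grow and shrink by unequal exchange. A count of 0 on a reference from another accession can have several sources. These include a gene that is missing, one that is silent, and reads that do not match the reference. Which source applied to a member was not tested.

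Gene counts per library ranged from 17479888 to 33306518, and entries without a gene name took another 13.4% to 35.2% of all counts, with the highest share in Ara-1 replicate 1. The seeds also differed in their stored RNA. Summed over 11 genes for storage proteins, oil bodies and late embryogenesis, the level was 466 to 770 CPM (counts relative to library size, scaled by TMM) in Ara-1, 120824 to 160879 CPM in untreated AtKAI2OE and 18816 to 19554 CPM after KAR2, and no marker was at 0 in any library. All 11 were lower in Ara-1 than in untreated AtKAI2OE. The summed level of 4 endosperm genes was 158 to 268, 1082 to 3193 and 880 to 1015 CPM in the same order. Almost all of this sum was *EPR1* (131 to 244, 1068 to 3182 and 863 to 994 CPM), the only one of the 4 that was lower in Ara-1 than in untreated AtKAI2OE. *MAN6* was higher in Ara-1 (12.7 to 15.6 against 2.86 to 5.22 CPM), and *MAN5* and *MAN7* overlapped between these groups. The part of these markers in the levels below was not tested, and in bulk RNA fewer cells of a type and less RNA per cell cannot be told apart.

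Summed over the 60 members, the counts were 11, 4 and 6 in Ara-1 replicates 1 to 3, that is 0.629, 0.123 and 0.180 CPM (here over gene counts without TMM scaling). The same genes held 19122, 25453 and 22123 counts in untreated AtKAI2OE and 23353, 18215 and 18690 counts after KAR2, or 717 to 1031 CPM. No AtKAI2OE library came near the Ara-1 libraries, which the rule fixes. In the Ara-1 libraries 46 members had no count at all, 9 had 1 count in total, 3 had 2 and 2 had 3 (AT1G24800 and AT4G39130, with 1 count in each library). For the 46 members at 0, a floor of 3 counts over the group makes the level in Ara-1 at least 88.5-fold to at least 3330-fold lower than in untreated AtKAI2OE (median bound 222-fold). Each bound here and below is the smaller of the values with and without TMM scaling. The other 14 were at 0.034% to 0.606% of the untreated AtKAI2OE level without TMM scaling, with exact binomial 95% intervals reaching up to 2.18%. These bounds and intervals cover counting error only, and they take each count as a tally of reads. In AtKAI2OE most members were of modest level, with a median of 7.98 CPM over the 6 libraries and a range of 3.09 to 149 CPM.

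**Figure D1:**
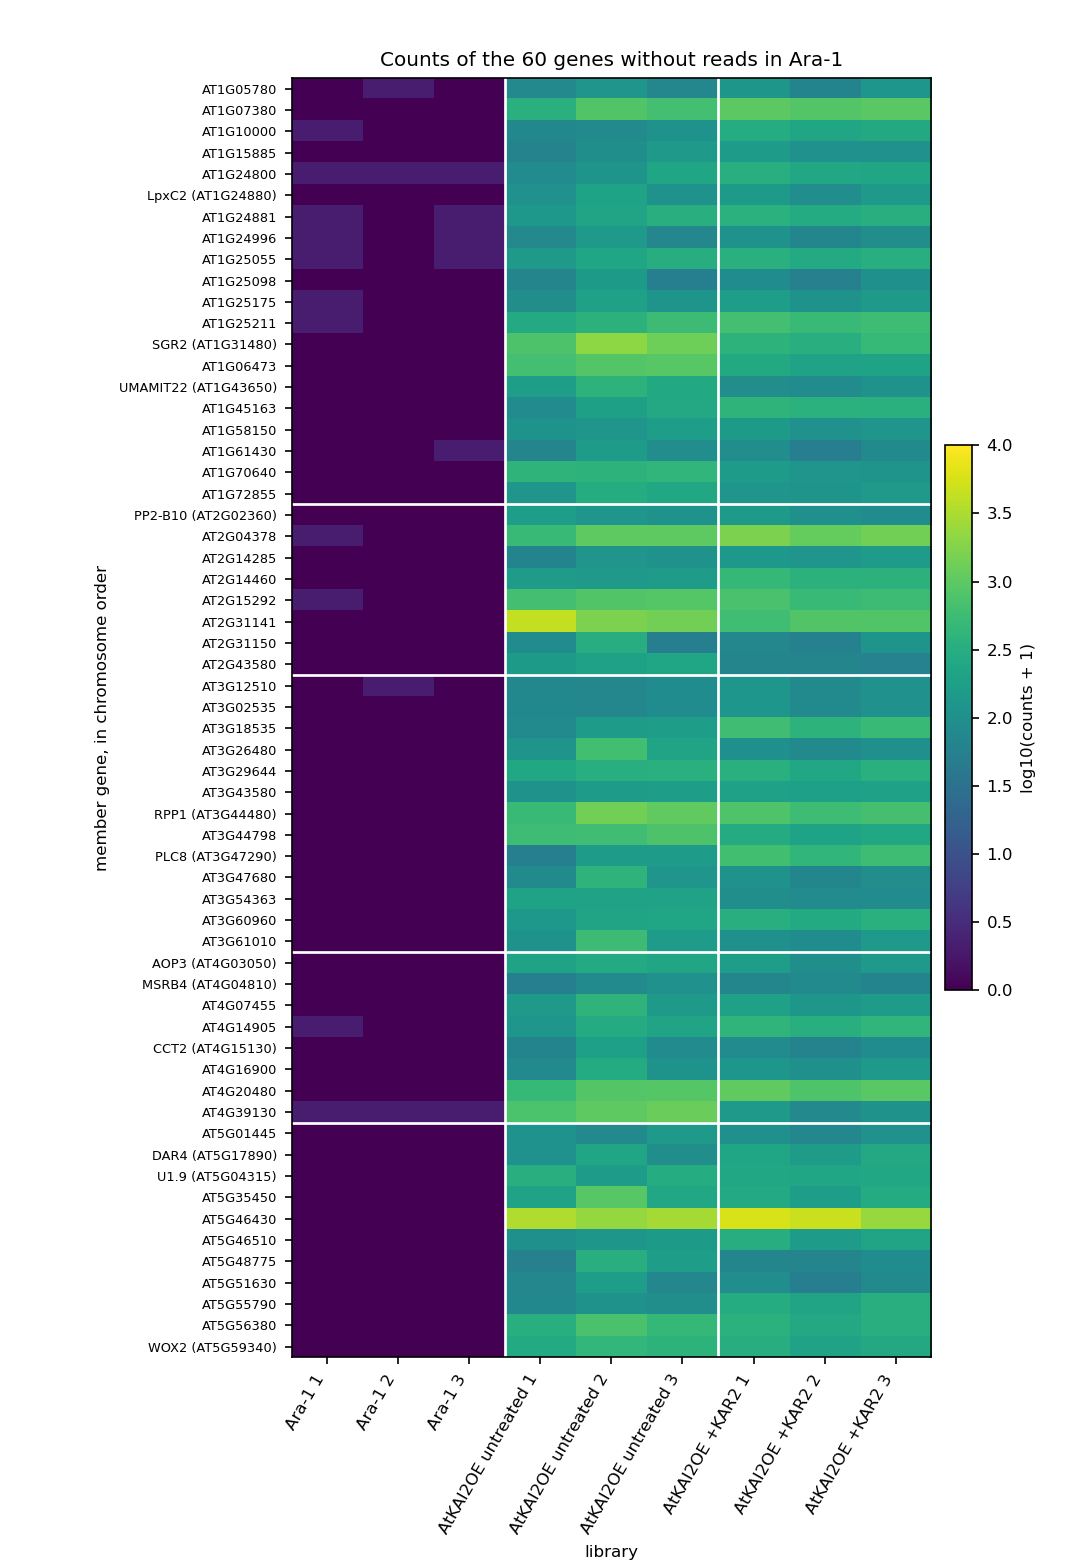
Counts of the 60 members (rows, in chromosome order, white lines between chromosomes) in the 9 libraries (columns), as log10(counts + 1). The 3 Ara-1 columns hold 0 or 1 count in every row, while the AtKAI2OE columns hold 51 to 5810 counts.

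The threshold cut through a series of similar genes. The members nearest to the floor were AT1G61430 and AT5G51630, whose lowest AtKAI2OE library had 51 counts, and AT2G31150 with 52. Just under the floor, with no count or 1 count in Ara-1, were the non-coding RNA gene AT1G72852 (lowest library 47) and AT1G44414 (43). The NLR gene AT1G72840 and *PIL1* (AT2G46970, phytochrome interacting factor 3-like 1) were tied next, at 38. Just over the ceiling, AT1G62420 had 0, 2 and 0 counts in the Ara-1 replicates and 764 to 2271 in AtKAI2OE. AT3G60980 and AT1G07400 had 2, 0 and 0 counts in Ara-1 and lie beside members. A ceiling of 10 counts in Ara-1 would take in 126 genes and a floor of 100 counts in AtKAI2OE would leave 27.

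By annotated class, 6 members encode NLR proteins, 6 encode F-box proteins, 10 are non-coding RNA genes, 9 encode hypothetical or uncharacterized proteins, and 22 encode other proteins. The remaining 7 are 3 DNA-binding factors, 2 glycosyl hydrolase or glycosyltransferase genes, a protein kinase and a ribosomal protein. NLR genes made up 10% of the members and 0.178% of the other genes with the AtKAI2OE floor. F-box genes made up 10% and 0.88%, non-coding RNA genes 16.7% and 1.14%. Seen from the class, 6 of the 26 NLR genes with the AtKAI2OE floor were members (23.1%), against 5.71% of F-box genes (6 of 105), 7.25% of non-coding RNA genes (10 of 138) and 1 of 375 protein kinase genes (0.267%). Most of the F-box members are near-identical copies in 1 array on chromosome 1, described below, and are not separate cases. The non-coding members include AT1G25098 and AT1G25175 of the same array, and AT3G02535, which overlaps the member AT3G12510. These shares describe the set and were not tested.

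**Figure D2:**
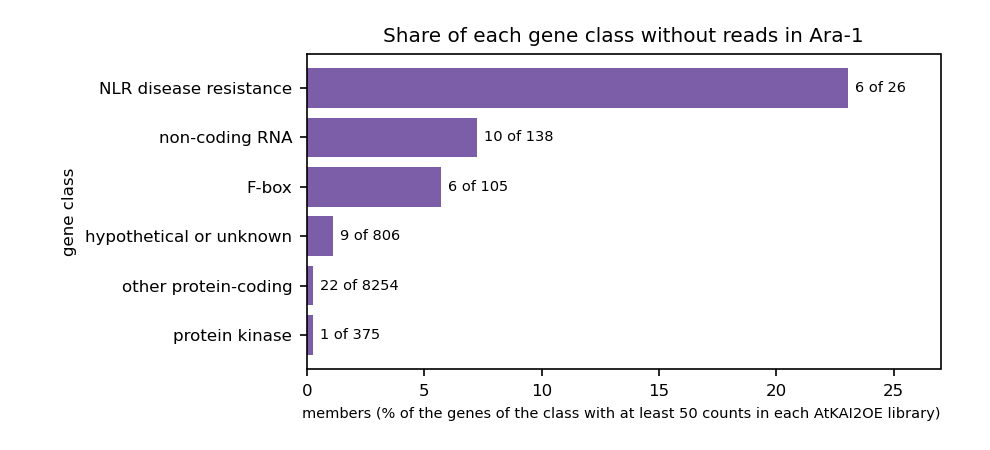
Members as a percentage of the genes of each class that reached at least 50 counts in each AtKAI2OE library (horizontal axis), for 6 classes. Numbers beside the bars give members and genes of the class. The NLR bar stands at 23.1%, above 7.25% for non-coding RNA genes. Most of the F-box members are near-identical copies in the chromosome 1 array.

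The NLR members lie on 3 chromosomes and were all at 0 in all 3 Ara-1 libraries. *RPP1* (AT3G44480), a receptor of the TIR class that recognises a downy mildew effector, had 496, 1410 and 1068 counts in untreated AtKAI2OE and 791, 562 and 658 after KAR2, so that its level in Ara-1 was at least 1150-fold lower. The CC-class gene AT5G35450 (*RPP8L3*) had 203, 904 and 240 counts untreated and 276, 173 and 284 after KAR2. Replicate 2 stood far above the other untreated replicates for this gene. *DAR4* (AT5G17890), a TIR-class receptor with a LIM domain, had 105, 222 and 95 counts untreated and 230, 154 and 263 after KAR2. The TIR-class genes AT4G16900, AT5G46510 and AT5G51630 had 51 to 311 counts in the AtKAI2OE libraries. *RPP1* lies from 16090460 to 16096477 on chromosome 3, AT4G16900 from 9511859 to 9516688 on chromosome 4, and *DAR4* from 5916862 to 5923494, AT5G35450 from 13666524 to 13671200, AT5G46510 from 18860234 to 18867015 and AT5G51630 from 20969128 to 20975940 on chromosome 5 (positions here and below are from TAIR10.1).

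The closest relatives of the NLR members, taken by protein identity, were low in Ara-1 as well. AT3G44630, 81.9% identical to *RPP1*, had 0, 0 and 0 counts in Ara-1 and 29, 153 and 91 in untreated AtKAI2OE, at least 106-fold lower (adjusted p = 0.000444 by the quasi-likelihood test of edgeR, Benjamini-Hochberg adjusted). AT4G36140, the relative of *DAR4* at 51.1% identity, had 0, 6 and 0 counts against 68, 169 and 104 (log2 fold change -6.32, SE 0.84, adjusted p = 0.000386 from the same edgeR test). Ara-1 replicate 2 held all of its Ara-1 counts, and the fitted value was -9.96 without this library and -5.71 without Ara-1 replicate 3. *SNC1* (AT4G16890), the closest relative of both AT4G16900 and AT5G51630, kept counts in Ara-1, with 11, 46 and 38 against 177, 264 and 295 (log2 fold change -3.60, SE 0.29, adjusted p = 3.75e-05 from edgeR). AT5G48620, 81.5% identical to AT5G35450, also kept counts, with 19, 48 and 28 against 316, 622 and 412 (-4.39, SE 0.25, adjusted p = 8.03e-06 from edgeR). The relative of AT5G46510 at 92.7% identity, AT5G46520, had 0, 0 and 0 counts in Ara-1 and only 6, 38 and 24 in untreated AtKAI2OE, and did not reach the test's filter on low counts. Of the 75-base words of the transcript, 64.2% were found once in the genome for *RPP1* and 52.2% for AT5G46510. The counts of these 2 members and of their relatives may therefore not be separate measures.

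Of the 6 F-box members, 4 belong to an array on chromosome 1 that holds 8 members. It runs from 8769511 to 8837007 (67.5 kb), from AT1G24800 to AT1G25211, and has 28 annotated loci, of which 23 are in the count table. The F-box members are AT1G24800, AT1G24881, AT1G25055 and AT1G25211. The others are *LpxC2* (AT1G24880), which encodes a deacetylase of a lipid A-like pathway, AT1G24996 of unknown function, and the non-coding RNA genes AT1G25098 and AT1G25175. The coding sequences of AT1G24800, AT1G24881, AT1G25055 and of AT1G25150, another copy in the array, are the same over all 1302 bases, and that of AT1G25211 differs at 2 positions (99.85% identity). A stretch of 90 bases around one of these positions (bases 311 to 400 of the coding sequence) shows how little tells the copies apart, with the differing base in capitals. The AT1G24800 stretch lies at chr1:8770051-8770140 and that of AT1G25211 at chr1:8835715-8835804, both on the plus strand of TAIR10.1 (RefSeq).
AT1G24800: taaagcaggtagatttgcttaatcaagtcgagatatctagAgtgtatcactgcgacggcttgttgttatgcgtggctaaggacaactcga
AT1G25211: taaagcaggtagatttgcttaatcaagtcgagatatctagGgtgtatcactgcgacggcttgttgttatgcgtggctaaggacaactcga

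In Ara-1 the F-box members of the array had 0 or 1 count in each library. AT1G24881 had 135, 219 and 319 counts in untreated AtKAI2OE and 354, 286 and 323 after KAR2, and AT1G25055 had 138, 225 and 307 and then 348, 278 and 325. These 2 sets of counts differ by at most 12 in any library. AT1G25211, the copy that differs, was the highest, with 276, 369 and 551 counts untreated and 627, 513 and 563 after KAR2. AT1G25150 missed the ceiling with 2, 1 and 1 counts in Ara-1, against 152, 228 and 324 in untreated AtKAI2OE (log2 fold change -7.84, SE 0.47). Its coding sequence is the same as that of members, which the rule selected on this difference, so that no test is given for it. For 7 of the 8 members at most 0.66% of the 75-base words of the transcript were found once in the genome, and for AT1G25211 17.9%. The study's methods kept uniquely mapped reads, and yet these near-identical copies hold counts. How reads were split among them, or whether a read was counted at more than 1 copy, could not be settled. Their single counts and their sum are therefore both uncertain.

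Some loci of the array were counted in Ara-1. How reads were shared among similar copies was not tested here either, so that their counts may not be separate measures. The 4 glutamine amidotransferase-type genes of the array, which alternate with the F-box copies, were higher in Ara-1 than in untreated AtKAI2OE. AT1G24807 had 19, 29 and 35 counts against 2, 2 and 2 (log2 fold change 3.17, SE 0.45, adjusted p = 0.000561 from edgeR), and AT1G25083 had 14, 32 and 30 against 1, 2 and 3 (3.03, SE 0.45, adjusted p = 0.000684 from edgeR). AT1G24909 and AT1G25155 differed in the same direction (2.87 and 2.82, adjusted p = 0.00562 and 0.011 from edgeR), and AT1G25155 was at 3.87 without untreated replicate 2. The *LpxC* copies 3, 4 and 5, between the members, had 7 to 16 counts in the Ara-1 libraries and 13 to 38 in untreated AtKAI2OE with log2 fold changes of -1.49 to -1.27 (adjusted p = 0.0118 to 0.0157 from edgeR). None of these 3 calls held without Ara-1 replicate 2 or without Ara-1 replicate 3 (adjusted p = 0.0545 to 0.07). Directly beside the array, *LpxC1* (AT1G24793) missed the floor with 38 counts in KAR2 replicate 1. It had 8, 11 and 13 counts in Ara-1 against 78, 139 and 95 in untreated AtKAI2OE (log2 fold change -3.81, SE 0.32, adjusted p = 4.18e-05 from edgeR). The nearest genes outside the array with the AtKAI2OE floor were both counted in Ara-1. *MAP70-2* (AT1G24764), for a microtubule-associated protein, had 119, 320 and 233 counts, and *ASB1* (AT1G25220), for a subunit of anthranilate synthase, had 514, 403 and 447.

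**Figure D3:**
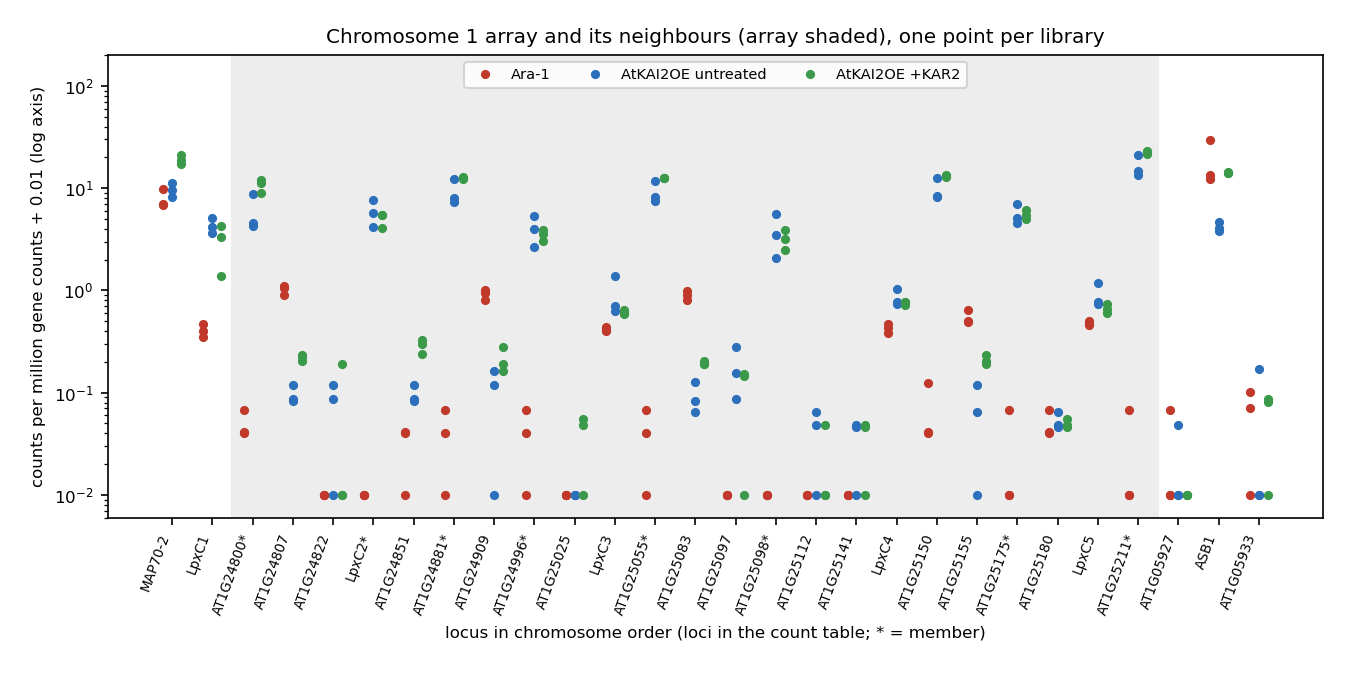
Level in CPM over gene counts, without TMM scaling and with 0.01 added, on a log axis for each locus of the chromosome 1 array that is in the count table and for its neighbours, in chromosome order, with 1 point per library. In the shaded array the members (asterisks) have Ara-1 points at the bottom of the plot, while AT1G24807, AT1G24909, AT1G25083 and AT1G25155 have their highest points in Ara-1.

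The other 2 F-box members lie apart from the array. *PP2-B10* (AT2G02360), which joins an F-box to a phloem lectin-like domain, had 173, 124 and 107 counts in untreated AtKAI2OE and 143, 102 and 86 after KAR2, and none in Ara-1. Its relative *SKIP3* (AT2G02350, 65.1% identity) had 56, 118 and 84 counts in Ara-1 against 16, 13 and 6 (log2 fold change 2.21, SE 0.51, adjusted p = 0.0057 from edgeR). AT5G56380, an F-box gene with an FBD domain, had 329, 717 and 457 counts untreated, 354, 256 and 325 after KAR2 and none in Ara-1.

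Beyond the array, members were spread over the genome. Chromosomes 1 to 5 held 20, 8, 13, 8 and 11 of them, or 0.692%, 0.469%, 0.569%, 0.474% and 0.414% of their genes with the AtKAI2OE floor. Runs of 2 or more members with no other gene of that floor between them numbered 6 and took in 16 members, and 2 of these runs are parts of the array. Members at most 5 annotated loci apart formed 3 groups of 12 members. AT2G31141, of unknown function, and AT2G31150 overlap on opposite strands of chromosome 2, as do the MADS-box gene AT3G12510 and the non-coding AT3G02535 on chromosome 3. The counts of the latter pair differed by at most 1 in any library, and reads of overlapping genes cannot be told apart here because the sources used here do not give the strand setting of the counting. In all, 27 members overlap another annotated locus. The ribosomal protein gene AT5G46430 (*RPL32B*) and the NLR gene AT5G46510 form a run on chromosome 5 (18833240 to 18867015), and AT2G14285 and AT2G14460 one of 102.8 kb on chromosome 2.

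The genes beside the members were mostly counted in Ara-1. Taking on each side the nearest gene with the AtKAI2OE floor that was no member gave 98 genes, of which 80 had at least 50 counts in every Ara-1 library, and 34 of the 60 members had all their flanking genes at that level. In the test of Ara-1 against untreated AtKAI2OE, 22 flanking genes were higher and 51 lower (22.4% and 52.0%), beside 28.0% and 42.5% of all non-member genes with the floor and 37.9% and 31.8% of all 17905 genes tested. The median log2 fold change was -0.63 over the flanking genes and -0.29 over the non-member genes with the floor. Only 3 flanking genes stayed at 2 counts or fewer in every Ara-1 library, namely AT1G25150, AT1G07400 and AT3G60980, and they flank 11 members. These 3 were picked by their low Ara-1 counts among genes with the floor, close to the rule itself. Their difference is therefore given as values without a test. AT1G07400, of the HSP20 family, lies 2 loci from the ceramidase gene AT1G07380 and had 124, 164 and 171 counts in untreated AtKAI2OE (log2 fold change -8.09, SE 0.76). AT3G60980, a tetratricopeptide repeat gene between the members AT3G60960 and AT3G61010, had 112, 119 and 168 (-7.90, SE 0.81). Ara-1 replicate 1 held all of their Ara-1 counts, and the fitted values were -10.68 and -10.49 without this library, -7.39 and -7.20 without Ara-1 replicate 2 and -7.45 and -7.26 without Ara-1 replicate 3. Some flanking genes kept more counts in Ara-1 and were still far lower there. AT5G55750, 4 loci from the member AT5G55790, had 15, 37 and 23 counts against 2989, 3515 and 4028 (log2 fold change -7.74, SE 0.27, adjusted p = 2.86e-06 from edgeR). AT4G07825, 77 loci from the member AT4G07455, had 6, 13 and 9 against 1613, 2126 and 2615 (-8.39, SE 0.24, adjusted p = 2.49e-06 from edgeR). On the other side, both flanks of *RPP1* were counted in Ara-1, and AT3G44430 was higher there by 2.17 (SE 0.17, adjusted p = 3.19e-05 from edgeR).

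**Figure D4:**
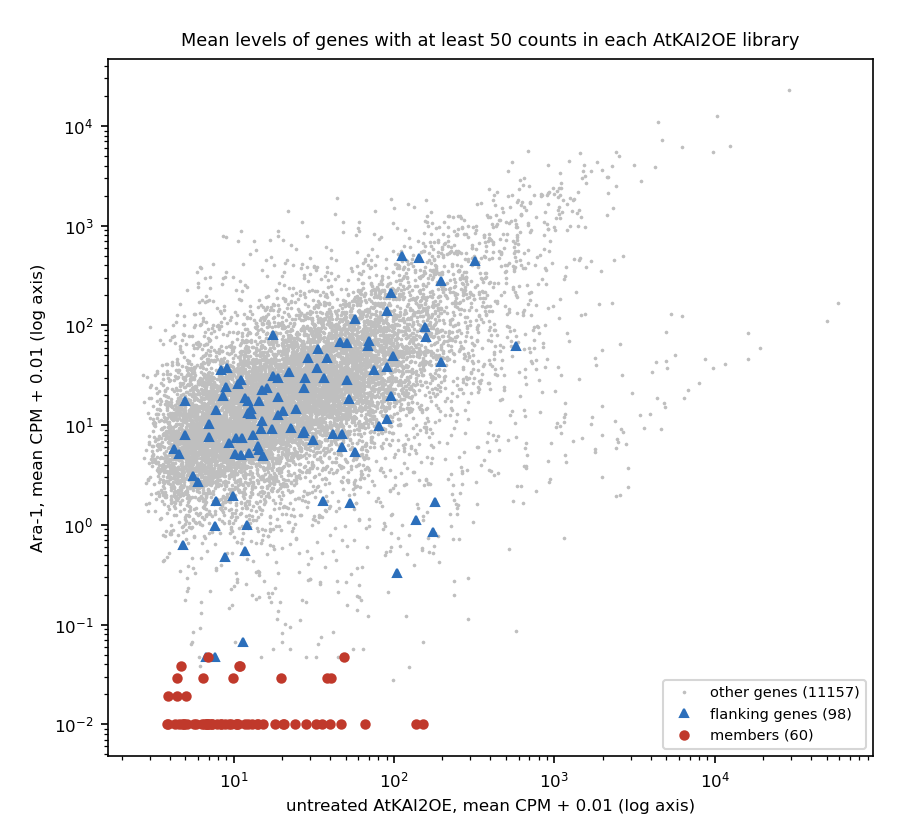
Mean level in Ara-1 (vertical axis) against untreated AtKAI2OE (horizontal axis), in CPM with 0.01 added, both axes log, for the 11315 genes with at least 50 counts in each AtKAI2OE library. The 60 members (circles) lie along the bottom, where the rule puts them, and most of the 98 flanking genes (triangles) lie among the other genes (dots).

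Several members had a relative that was counted in Ara-1. AT5G46430 encodes ribosomal protein L32 and was the most abundant member at 149 CPM, with 3351, 2324 and 2935 counts in untreated AtKAI2OE, 5810, 4803 and 2393 after KAR2 and none in Ara-1, at least 3330-fold lower. The other gene for this protein, AT4G18100 (96.2% protein identity), had 24050, 69513 and 84078 counts in Ara-1 and 28816, 16937 and 25326 in untreated AtKAI2OE, with a log2 fold change of 0.54 (SE 0.42, adjusted p = 0.282 from edgeR). The coding sequences of this pair differ at 44 of 402 bases (89.05% identity) and share no run longer than 32 bases, and all 75-base words of the AT5G46430 transcript are unique. The first 90 coding bases are shown because they separate the copy without counts from the copy with counts, with differing bases in capitals. They lie at chr5:18833429-18833518 (plus strand) for AT5G46430 and chr4:10036386-10036475 (minus strand) for AT4G18100.
AT5G46430: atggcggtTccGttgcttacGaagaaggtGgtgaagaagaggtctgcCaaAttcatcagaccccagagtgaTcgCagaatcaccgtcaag
AT4G18100: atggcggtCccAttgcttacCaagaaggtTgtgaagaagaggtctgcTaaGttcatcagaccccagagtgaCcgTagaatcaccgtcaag

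The methionine sulfoxide reductase genes *MSRB4* and *MSRB5*, whose products repair oxidised methionine, showed opposite counts. *MSRB4* (AT4G04810, a member, from 2441241 to 2442785 on chromosome 4) had 53, 77 and 106 counts in untreated AtKAI2OE, 68, 79 and 63 after KAR2 and none in Ara-1. *MSRB5* (AT4G04830), 87.0% identical in protein and close by on the same chromosome, had 647, 1483 and 1592 counts in Ara-1, none in any untreated AtKAI2OE library, and 55, 38 and 53 after KAR2. Its level was at least 847-fold higher in Ara-1 than in untreated AtKAI2OE (adjusted p = 8.17e-06 from edgeR), and at least 35.4-fold higher after KAR2 than untreated. The coding sequences differ at 54 of 420 bases (87.14% identity), and their first 90 bases are given for the same reason, at chr4:2441412-2441501 and chr4:2445902-2445991 (both plus strand).
MSRB4: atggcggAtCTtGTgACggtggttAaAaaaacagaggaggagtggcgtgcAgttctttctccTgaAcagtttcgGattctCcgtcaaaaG
MSRB5: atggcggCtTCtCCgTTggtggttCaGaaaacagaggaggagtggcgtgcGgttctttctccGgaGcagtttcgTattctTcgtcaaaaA

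The search gave no relative for *LpxC2* (AT1G24880), although other *LpxC* copies lie in and beside the array, so that the number of relatives may be too low. For 38 of the 50 protein-coding members a relative was found, and for 6 of them it was itself a member. Besides the array copies these are AT1G45163 on chromosome 1 and AT5G55790 on chromosome 5, uncharacterized genes that are each other's closest relative, with 96.32% identity over the aligned coding bases. AT1G45163 had 83, 184 and 255 counts untreated and 402, 362 and 349 after KAR2, and AT5G55790 had 73, 107 and 95 and then 301, 214 and 316. Of the 31 relatives that were no members, 19 could be tested between Ara-1 and untreated AtKAI2OE, and 5 were higher and 10 lower (26.3% and 52.6%, beside the 28.0% and 42.5% of non-member genes with the floor). Among the higher ones was *RUXF* (AT4G30220), for a core protein of spliceosomal snRNPs, with 1286, 3300 and 3540 counts in Ara-1 and 507, 605 and 755 in untreated AtKAI2OE (log2 fold change 1.47, SE 0.21, adjusted p = 0.000501 from edgeR). The member AT2G14285, of the same snRNP family, had 63 to 162 counts in the AtKAI2OE libraries and none in Ara-1.

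A list was made of 29 loci taken as cases of variation between accessions, mostly in disease resistance, glucosinolates and flowering. Whether each of them varies was not tested. Of these loci, 28 were in the count table, 9 had the AtKAI2OE floor and 2 of those were members, *RPP1* and *AOP3*. *AOP3* (AT4G03050), a dioxygenase that modifies glucosinolate side chains, lies from 1343845 to 1346436 on chromosome 4 and had 206, 276 and 223 counts in untreated AtKAI2OE and 172, 96 and 141 after KAR2. The 7 others with the floor had 95 to 1692 counts in total over the Ara-1 libraries.

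The members with the highest levels came from many functions. After AT5G46430 the next was AT2G31141, with 4220, 1639 and 1382 counts in untreated AtKAI2OE and 595, 820 and 828 after KAR2, where replicate 1 stood far above the other untreated replicates. AT2G04378, annotated as beta-galactosidase related, had 512, 1000 and 1024 counts untreated and 1598, 1136 and 1414 after KAR2, and 1 count in Ara-1 replicate 1. *SGR2* (AT1G31480), a phospholipase-like protein needed for shoot gravitropism, had 772, 2114 and 1308 counts untreated and 378, 323 and 473 after KAR2. The others among the 10 highest were *RPP1*, AT4G20480 (478 to 1051 counts), the ceramidase gene AT1G07380 (347 to 981), the non-coding RNA genes AT2G15292 (488 to 866) and AT1G06473 (203 to 921), and the dehydrin gene AT4G39130. Each had 0 or 1 count in each Ara-1 library.

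Members and other genes were also set side by side in features that the rule did not use. All 75-base words of the transcript were unique in the genome for 44 of the 60 (73.3%), against 94.9% of the other genes with the AtKAI2OE floor, and 8 members (13.3%, against 0.591%) had fewer than 50% unique words, all of them in the chromosome 1 array. Counting only genes whose words are all unique, 44 of 10635 genes with the floor were members (0.414%). A relative of at least 80% protein identity was found for 15 of the 50 protein-coding members (30.0%, against 19.2%). Among them are AT1G24800, AT1G24881, AT1G24996, AT1G25055 and AT1G25211 of the array, whose closest relatives also lie in it. The search missed the other copies of *LpxC2*, so that these shares may be too low. Members had fewer exons, with a median of 2 against 5, and 28.3% had a single exon against 11.5%. Their median transcript length was 1547.5 bases against 1800. In the counts that the rule did use, the median over the AtKAI2OE libraries was 189 against 552, so that members lay nearer to the floor than other genes.

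The rule used the counts of all 6 AtKAI2OE libraries, with the same floor in treated and untreated ones, but not the difference between them. The floor alone goes with a shift of the KAR2 response, from 29.8% higher and 24.0% lower among all 17226 genes tested to 24.2% and 31.5% among the 11315 genes that meet it, so that the members are read beside the latter. Of the 60 members, 6 were higher and 25 lower after KAR2 and 29 did not pass the test (edgeR's quasi-likelihood test, adjusted p under 0.05). That is 10% higher and 41.7% lower, beside 24.2% and 31.5% of the genes with the floor. The median log2 fold change was -0.62 over the members and -0.13 over the genes with the floor. Scaling by library size only, which moved the median of all genes up by 0.396, gave 12 members higher and 16 lower, and without KAR2 replicate 1 there were 16 lower. All 8 members of the array were among those that did not pass, with a median of -0.19. Without untreated replicate 3, AT1G24800 was higher (log2 fold change 0.88, adjusted p = 0.0174 from edgeR), as it was when scaled by library size only (0.89, adjusted p = 0.0425), and *LpxC2* (AT1G24880), AT1G24996, AT1G25098 and AT1G25175 were lower (-0.84, -0.83, -0.93 and -0.54, adjusted p = 0.0157, 0.0181, 0.0333 and 0.0476). The storage and late embryogenesis markers fell after KAR2 as well (11 of 11 lower), and their part in the members' response was not tested.

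Dehydrin gene AT4G39130, of a protein family that accumulates in drying seeds, fell most. It went from 726, 1017 and 1219 counts to 142, 74 and 108, or from 47.4 ± 6.63 down to 3.63 ± 0.702 CPM (± SD over n = 3 replicates), with a log2 fold change of -3.70 (SE 0.20, adjusted p = 2.98e-05 from edgeR). Its relative, the dehydrin gene *LEA* (AT2G21490), was low in Ara-1 too, with 669, 1555 and 1410 counts against 23895, 46278 and 43512 in untreated AtKAI2OE (-5.54, SE 0.22, adjusted p = 3.27e-06 from edgeR). The non-coding AT1G06473 went from 39.0 ± 5.07 to 7.67 ± 0.854 CPM (-2.34, SE 0.16, adjusted p = 5.2e-05 from edgeR), and *SGR2* from 64.1 ± 16.8 to 13.4 ± 1.96 CPM (-2.26, SE 0.22, adjusted p = 0.000197). AT1G70640, with a PB1 domain, the chitinase gene AT2G43580 and *UMAMIT22* (AT1G43650), of a family of amino acid transporters, also fell, with log2 fold changes of -2.17, -2.11 and -1.97 (adjusted p = 0.000365, 0.000216 and 0.000167 from edgeR). The WD-40 repeat gene AT3G26480 fell by 2.1 (SE 0.43, adjusted p = 0.00524 from edgeR), with 117, 607 and 217 counts untreated and 99, 81 and 102 after KAR2. Its log2 fold change was -1.47 without untreated replicate 2, and the call was lost when only the entry named by the gene was counted (-1.61, adjusted p = 0.0942 from edgeR). AT2G31141 had a log2 fold change of -2.38 (SE 0.64, adjusted p = 0.0172 from edgeR) that no longer passed without KAR2 replicate 1 (adjusted p = 0.0683) or 3 (0.058), and that was -1.29 without untreated replicate 1. *WOX2* (AT5G59340), a homeobox gene of the early embryo, fell from 17.7 ± 1.2 to 8.71 ± 0.851 CPM (-1.02, SE 0.14, adjusted p = 0.00076 from edgeR).

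The 6 members that rose were led by *PLC8* (AT3G47290), of the phosphoinositide-specific phospholipases C. It had 53, 153 and 157 counts untreated and 614, 433 and 570 after KAR2, with a log2 fold change of 1.73 (SE 0.23, adjusted p = 0.000862 from edgeR). The tubulin-tyrosine ligase gene AT3G18535 rose by 1.39 (SE 0.16, adjusted p = 0.000466 from edgeR), from 80, 157 and 173 to 590, 390 and 500 counts. AT5G55790 rose by 1.09 (SE 0.16, adjusted p = 0.00118) and the ribonuclease H-like gene AT1G10000 by 1.06 (SE 0.20, adjusted p = 0.00369 from edgeR). In each of these 4 genes every treated library was above every untreated one, in CPM as in counts. AT2G14460 and the kelch repeat gene AT4G14905 rose by 0.85 and 0.43, but these calls were lost when any 1 of the KAR2 libraries or untreated replicate 3, and for AT4G14905 also untreated replicate 1, was left out (adjusted p up to 0.0845 and 0.143).

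By class, 3 of the 6 NLR members fell and none rose, beside 31.5% lower and 24.2% higher among all genes with the floor. *RPP1* went from 45.2 ± 11.1 to 22.8 ± 1.41 CPM (log2 fold change -0.99, SE 0.19, adjusted p = 0.00443 from edgeR) and no longer passed when scaled by library size only (-0.60, adjusted p = 0.0637). AT5G35450 (-1.27, adjusted p = 0.0467 from edgeR) and AT5G51630 (-0.98, adjusted p = 0.0381) lost their calls without any 1 of the KAR2 libraries (adjusted p up to 0.139 and 0.125), and AT5G51630 also without untreated replicate 2 (0.0725). Neither passed when scaled by library size only (0.151 and 0.196), and AT5G35450 was at -0.58 without untreated replicate 2. Of the F-box members only AT5G56380 fell, from 23.5 ± 4.33 to 10.6 ± 0.301 CPM (-1.14, SE 0.16, adjusted p = 0.000954 from edgeR). *AOP3* fell by 1.32 (SE 0.20, adjusted p = 0.00144 from edgeR). Of the 10 non-coding members, 6 fell and none rose, to be read beside the same shares. In all, 19 of the 31 calls, 4 higher and 15 lower, held with each of the 6 libraries left out in turn.

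**Figure D5:**
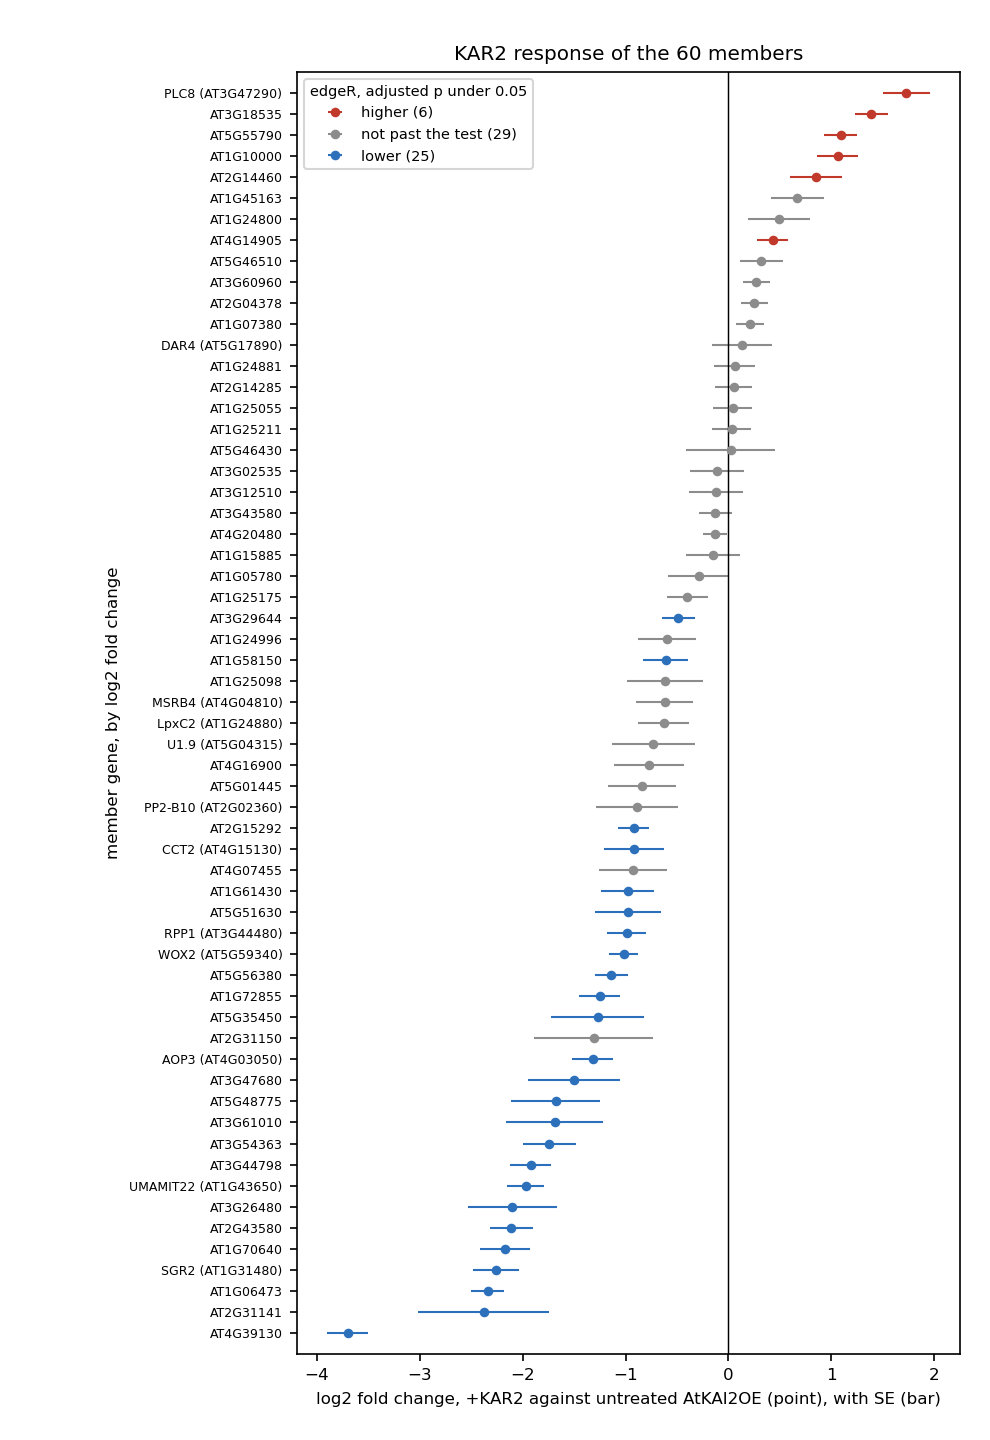
Log2 fold change after KAR2 within AtKAI2OE (horizontal axis, point) with its SE (bar) for the 60 members, ordered by value and coloured by the call of edgeR's test (3 replicates per group). The values run from -3.70 for AT4G39130 to 1.73 for *PLC8*, with 25 lower, 6 higher and 29 not past the test.

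Untreated AtKAI2OE replicates differed more among themselves than treated ones. The median ratio of the highest to the lowest replicate in CPM was 1.65 untreated and 1.23 after KAR2 over the members, and 1.44 and 1.12 over the other genes with the floor. In untreated replicate 2, 9 members (15%, against 7.17% of the other genes) were more than 1.5 times above both other replicates, among them AT5G35450, AT3G26480, AT4G16900 and the non-coding AT5G48775 (55, 331 and 173 counts).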

How the data were processed

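Counts were deposited by the authors as whole numbers per gene and were used as they stand. They were made from single-end reads with HISAT2 2.1.0 on TAIR10, SAMtools 1.10 and StringTie 2.1.3 (versions from the submitters' processing notes). By the study's methods the counts were extracted from StringTie's transcript assemblies, and whether each equals a tally of reads was not tested. The authors' normalized files were not used. Entries of 1 gene were summed, and 1105 entries without a gene name were left out. Members, gene lists, named-gene rules and tests were chosen with earlier results of these data known. Named members are those in runs of 3 or more, the 10 most abundant, up to 8 per direction by KAR2 response, NLR, F-box and known variable loci, those nearest a threshold, and their flanks and relatives. *MSRB4*, *WOX2*, AT1G45163, AT2G14285, AT3G12510, AT3G02535, AT5G48775, *LpxC1*, AT4G07825 and the non-members of the array were added after their values were seen.

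Tests used edgeR 4.0.16 in R 4.3.3 (filterByExpr with minimum count 10 and minimum total 15, TMM, quasi-likelihood, Benjamini-Hochberg at 0.05) on the 6 libraries of each comparison and were tested on simulated data. No pair of replicates agreed within sampling noise. Relatives were found by blastp 2.17.0 (at least 50% of the member aligned), and positions, 75-base words and sequences came from RefSeq's TAIR10.1, to which all 60 members matched. Alternatives were DESeq2 1.42.0, RLE or library-size scaling, no filter, all 9 libraries, the replicate block, single entries, and each replicate left out.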

Additional observations from a re-analysis of the deposited data

Results flagged for a closer look

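One entry that the comparisons do not use, since it names no gene, had counts in Ara-1 alone. It held 118, 784 and 760 counts in Ara-1 replicates 1 to 3 and 0 in each of the 6 AtKAI2OE libraries. Its number in the authors' transcript assembly falls between numbers of named genes of the chromosome 1 array, in an interval that holds 5 of the 8 array members (AT1G24996, AT1G25055, AT1G25098, AT1G25175 and AT1G25211). The files give the entry no position, and 96.2% of the 3113 named genes used as anchors had numbers in chromosome order, so the placement is approximate. There were 38 unnamed entries with at least 50 counts in each Ara-1 library and at most 10 in each AtKAI2OE library. An interval with such an entry held 5 of the 60 members (8.33%), beside 2.09% of the other genes with the AtKAI2OE floor. All 5 share the entry described here and the same array, so that they are a single case. This placement was chosen after the data were seen, and what the entry encodes was not tested.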

How the results depend on the processing

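The count of members rose from 60 to 96 with a floor of 20 counts in AtKAI2OE and to 126 with a ceiling of 10 counts in Ara-1, and fell to 27 with a floor of 100 counts. It was 60 to 74 as each replicate was left out. Members at most 1 locus apart numbered 4, in place of 12. Scaling by library size only gave 12 members higher and 16 lower after KAR2, in place of 6 and 25. With each replicate left out these counts were 4 to 6 and 16 to 29. Outside the array they were 6 and 25 of 52, and among members whose words are all unique 5 and 21 of 44 (both chosen after seeing the data). The replicate block gave 5 and 18. The replicate numbers did not pair the libraries, since same-numbered libraries had correlations of -0.008, -0.099 and -0.024 in their deviations for KAR2 and 0.049, 0.287 and 0.036 for Ara-1. Some KAR2 responses near 0 changed sign. With a replicate left out 9 members did so (values from -0.26 to 0.11), and by library size only 6 did (0.12 to 0.31), none of them past the test. AT3G61010, which had passed at -1.69, came to 1.06 (adjusted p = 0.525 from edgeR) when only the entry named by the gene was counted. Causes were not tested. Depth limits the members near 50 counts, and the files give no depth per position, so that missing genes and reads that do not map cannot be told apart.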
